A study of Mus musculus with 6 samples.

Results

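The transcripts of 10 genes that mark tissue macrophages were read in RNA of whole mouse ovaries at 16.5 dpc (days post-coitus), in 3 Ctrl and 3 *Srsf1* cKO libraries. All libraries came from C57BL/6 mice. The labels give the Ctrl mice as wild type, and the cKO mice carried *Stra8-GFPCre* with loxP-flanked *Srsf1*, so that exons are deleted in germ cells as they enter meiosis. Macrophages are therefore not the cells in which this Cre is meant to act, and each library holds their RNA mixed with that of every other cell of the ovary. How many ovaries made up a library is not stated in the labels or methods. The tissue field of the labels is ovary, whereas their extraction protocol speaks of a different organ, so ovary markers were checked. *Foxl2*, the transcription factor of pregranulosa cells, lay between 47.5 and 74.6 FPKM, and *Ddx4*, which marks germ cells, between 13.1 and 55.1 FPKM in the 6 libraries. FPKM is the number of fragments per kilobase of gene length, scaled to library depth, so levels of different genes can be set side by side.

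The genes were taken by name and not by their values. They are *Csf1r*, *Adgre1*, *C1qa*, *C1qb*, *C1qc*, *Mrc1*, *Cx3cr1*, *Lyve1*, *Fcgr1* and *Cd68*. All 10 were found among the 54532 genes of the deposited table, and all 10 had a mean of at least 0.5 FPKM over the 6 libraries, the minimum for the 17180 genes that were tested. No member passed this minimum through 1 group alone, since the lowest group mean of any member, that of *Fcgr1* in Ctrl, was 0.53 FPKM. *Srsf1* was 71.2 ± 8.61 FPKM (SD, n = 3) in Ctrl and 35.3 ± 2.49 FPKM in cKO.

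Macrophages settle in the fetal ovary from embryonic blood-forming tissues. They live on signals through the CSF1 receptor, take up dying cells and debris, and make C1q, the recognition part of the classical complement pathway. Their numbers were not counted in these samples. In a whole-organ library, fewer macrophages and less RNA of a gene per macrophage cannot be told apart.

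Most macrophage marker genes had a lower mean in cKO than in Ctrl ovaries, but no member passed the test between the groups. In limma, 0 of the 10 genes passed an unadjusted p below 0.05 in either direction, beside 1.75% of all genes tested that were lower and 2.68% that were higher in cKO. Tested with voom on recovered reads, 0 of the 10 passed as well. The log2 fold change was below 0 for 8 of the 10 genes, with a median of -0.21, beside 52.1% of all genes tested and a median of -0.01. Among the 10, *Adgre1* alone had every cKO library below every Ctrl library, which was the case for 4.10% of the genes tested. The opposite order, every cKO library above, held for 0 of the 10 and for 4.59% of the genes tested. These counts depend on 1 library. Without cKO 2, *C1qa*, *C1qc* and *Csf1r* passed the unadjusted limit as lower in cKO (limma, unadjusted p of 0.00208, 0.0143 and 0.038), beside 6.03% of all genes.

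The levels themselves ranged over more than an order of magnitude. By mean FPKM over the 6 libraries, *C1qb* was highest at 11.7, followed by *C1qa* at 8.65, *Cd68* at 6.70, *C1qc* at 5.44, *Csf1r* at 4.97, *Mrc1* at 3.03, *Cx3cr1* at 2.30, *Adgre1* at 2.09, *Lyve1* at 0.68 and *Fcgr1* at 0.57. *C1qb* lay at the 68.5 percentile of the genes tested and *Fcgr1* at the 2.47 percentile. Some neighbours in this order were not separated. *C1qc* was above *Csf1r* in 3 of 6 libraries, and *Cd68* was above *C1qc*, and *Cx3cr1* above *Adgre1*, in 4 of 6. *C1qa* was above *Cd68*, and *Lyve1* above *Fcgr1*, in 5 of 6. By contrast, *C1qb* was above *C1qa*, *Csf1r* above *Mrc1*, *Mrc1* above *Cx3cr1* and *Adgre1* above *Lyve1* in all 6.

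The reads behind a value were few. Over the 6 libraries, a member had between 16 reads (*Fcgr1* in Ctrl 2) and 508 reads (*Csf1r* in Ctrl 3). The reads on all 10 summed to 1850, 1652 and 2038 for Ctrl libraries 1 to 3, against 1324, 1962 and 1195 for cKO libraries 1 to 3. Divided by the library's depth, in cKO 1 and cKO 3 the sum lay below every Ctrl library, and in cKO 2 it lay within the range of Ctrl.

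**Figure D1:**
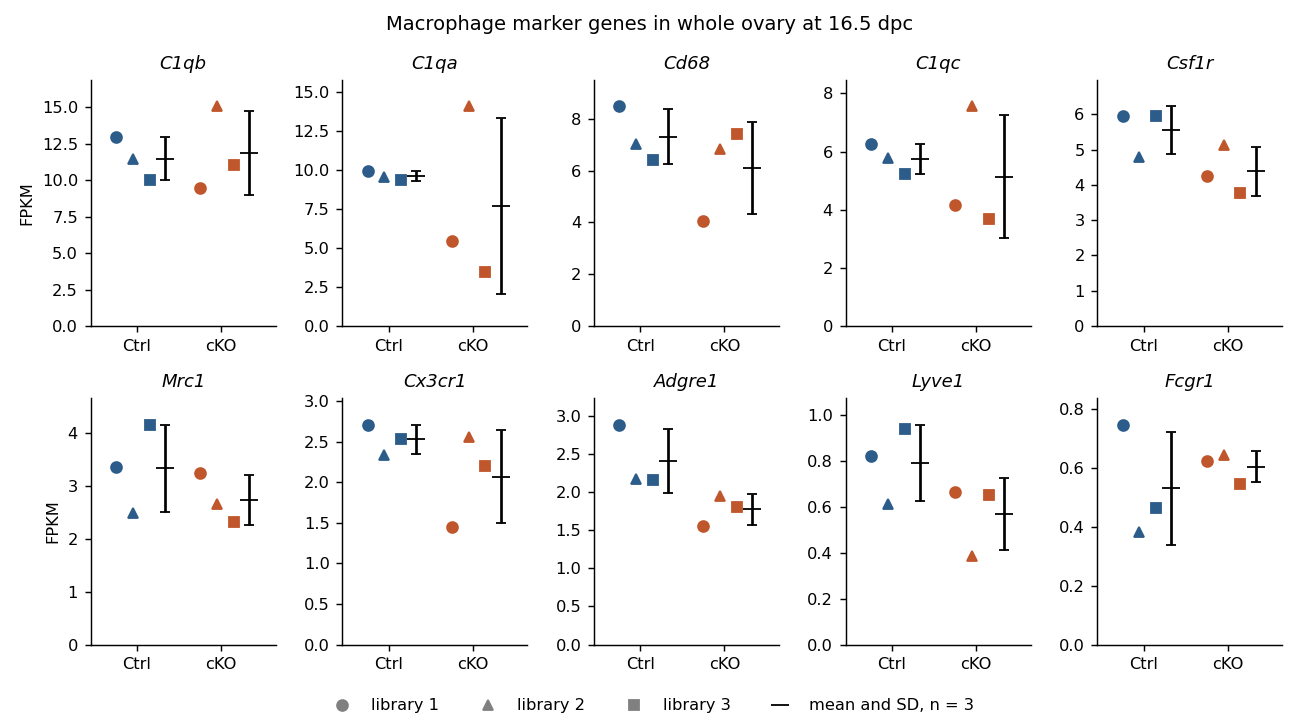
FPKM of each macrophage marker gene (vertical axes, from 0, each panel with its own scale) in the 3 Ctrl and 3 cKO libraries, with circles, triangles and squares for libraries 1, 2 and 3 and a black bar for the mean and SD. Adgre1 is the gene in which the groups do not overlap, and C1qa shows the widest spread in cKO, from 3.45 to 14.1 FPKM.

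*Csf1r* encodes the receptor for CSF1 and IL-34, on which most tissue macrophages depend. In the order of libraries 1, 2 and 3, which is kept throughout, it stood at 5.94, 4.78 and 5.95 FPKM in Ctrl ovaries and at 4.25, 5.14 and 3.76 FPKM in cKO ovaries. Of the cKO libraries, cKO 2 lay above Ctrl 2, and the other 2 lay below every Ctrl library. This gave a log2 fold change of -0.29 (SE 0.15), with a 95% interval from -0.65 to 0.07 (limma, adjusted p = 0.978). The gene lies on chromosome 18 of GRCm38 from 61105572 to 61132149. In GENCODE M21, 873 of its 5774 exon bases are shared with *Hmgxb3* on the other strand. The deposited table gives *Csf1r* other coordinates than that release and a length of 4885 bases, so whether the shared bases were counted is not known.

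The ligands of this receptor were listed too. *Csf1*, its main growth factor, was 1.504 ± 0.234 FPKM (SD, n = 3) in Ctrl and 1.58 ± 0.139 FPKM in cKO, a log2 fold change of 0.05. *Il34*, the second ligand, stood at 2.14, 1.83 and 2.37 FPKM in Ctrl and at 2.38, 2.56 and 2.95 FPKM in cKO, so each cKO library lay above the highest Ctrl library. This difference, 0.22 on the log2 scale with a standard error of 0.14, did not pass the unadjusted limit (limma, adjusted p = 0.978).

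*Adgre1* encodes F4/80, the surface receptor by which mouse macrophages are most often stained. Its values were 2.88, 2.17 and 2.16 FPKM in Ctrl and 1.56, 1.95 and 1.81 FPKM in cKO. The highest cKO library, cKO 2, was below the lowest Ctrl library, Ctrl 3. The means were 2.40 ± 0.414 FPKM (SD, n = 3) and 1.77 ± 0.199 FPKM (limma log2 fold change -0.29, SE 0.15, 95% interval -0.65 to 0.06, adjusted p = 0.978). The exact permutation test gave p = 0.1, two-sided, the smallest p that 3 libraries against 3 allow. Leaving out any 1 library gave values from -0.34 to -0.19. The gene spans 57358691 to 57483527 on chromosome 17, and no other annotated gene overlaps it.

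C1q is built of 3 chains, whose genes sit side by side on chromosome 4 on the minus strand. *C1qb* spans 136880129 to 136886187, *C1qc* 136889804 to 136893065 and *C1qa* 136895917 to 136898803, each with 3 exon blocks. Windows of 300 bases around the start site of 6 members were at hand (RefSeq, GRCm38.p6). They were those of *C1qb*, *C1qc*, *Cd68*, *Fcgr1*, *Mrc1* and *Cx3cr1*. Each window was searched on both strands for GAGGAA, the purine-rich box that the myeloid factor PU.1 is named after, and for GGAAGT, another core of sites of the ETS family to which PU.1 belongs. These can overlap by 4 bases. Both were found in 5 of the 6 windows, and *Cx3cr1* held neither. Over all 32851 windows, GAGGAA was in 28.3%, GGAAGT in 23.8% and both in 8.65%. Both motifs were chosen after the sequences had been seen, so the share of the 6 windows that held them does not measure enrichment. A match is a match of letters and not a measured site. The windows of *C1qb* (chr4:136886151-136886450, minus strand), *C1qc* (chr4:136892865-136893164, minus strand) and *Cx3cr1* (chr9:120068247-120068546, minus strand) are shown 5′ to 3′, the first pair because these are neighbouring genes of 1 complex and the last because it held no match. Capitals mark the matches on either strand. In *C1qb* they begin 53 and 30 bases before the start site, and in *C1qc* they overlap and begin 195 and 193 bases before it.

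*C1qb*: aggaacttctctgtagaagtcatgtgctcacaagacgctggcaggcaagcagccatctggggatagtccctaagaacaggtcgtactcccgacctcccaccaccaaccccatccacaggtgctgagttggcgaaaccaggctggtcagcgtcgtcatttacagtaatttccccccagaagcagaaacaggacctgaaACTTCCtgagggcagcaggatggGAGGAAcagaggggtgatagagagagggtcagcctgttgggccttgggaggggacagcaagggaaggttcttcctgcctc

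*C1qc*: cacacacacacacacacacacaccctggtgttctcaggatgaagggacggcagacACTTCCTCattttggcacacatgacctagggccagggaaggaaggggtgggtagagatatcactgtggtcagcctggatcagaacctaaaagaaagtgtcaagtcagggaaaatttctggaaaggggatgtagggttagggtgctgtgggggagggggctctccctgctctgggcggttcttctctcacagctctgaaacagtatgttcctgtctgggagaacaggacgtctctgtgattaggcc

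*Cx3cr1*: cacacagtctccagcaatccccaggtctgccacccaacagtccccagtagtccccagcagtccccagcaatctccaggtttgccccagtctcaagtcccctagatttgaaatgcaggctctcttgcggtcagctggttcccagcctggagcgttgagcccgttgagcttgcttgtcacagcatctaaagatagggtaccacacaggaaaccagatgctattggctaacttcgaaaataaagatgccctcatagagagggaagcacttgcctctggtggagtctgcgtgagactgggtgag

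*C1qa* was nearly level in Ctrl ovaries and spread widely in cKO ovaries. It stood at 9.94, 9.56 and 9.36 FPKM in Ctrl and at 5.47, 14.1 and 3.45 FPKM in cKO, with cKO 2 above and the other cKO libraries below all of Ctrl. The between-library SD was 3.06% of the mean in Ctrl and 73.7% in cKO, while counting error alone would give about 7.86% and 8.83%. This gave a log2 fold change of -0.49 (SE 0.41), with a 95% interval from -1.47 to 0.49. Leaving out cKO 2 moved it to -0.98, with an unadjusted p of 0.00208 and an adjusted p of 0.187 in limma, and leaving out cKO 3 moved it to -0.10. Over the alternatives, the smallest adjusted p of any member was between 0.187 and 1.

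*C1qc* had the same order of libraries in cKO. Its values were 6.25, 5.79 and 5.22 FPKM in Ctrl and 4.15, 7.56 and 3.68 FPKM in cKO. The log2 fold change was -0.19 (95% interval from -0.75 to 0.38), and it was -0.46 without cKO 2 and -0.02 without cKO 3. *C1qb* differed from both. It stood at 12.9, 11.5 and 9.996 FPKM in Ctrl and at 9.45, 15.1 and 11.0 FPKM in cKO, and its log2 fold change of 0.03 (95% interval from -0.42 to 0.47) turned to -0.06 without Ctrl 3, to -0.15 without cKO 2 and to -0.04 when each library was scaled to 8 pregranulosa and stroma genes.

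The balance of the 3 chains was read within each library, where depth cancels out. Of the C1q reads, *C1qa* took 28.3%, 29.6% and 31.7% in Ctrl 1, 2 and 3. In cKO 1, 2 and 3 it took 23.7%, 32.1% and 15.8%. The exact binomial 95% interval was 12.0% to 20.3% in cKO 3, from 51 of 322 reads, and its upper bound was below the lower bound of each Ctrl library (24.6% at the lowest) and of cKO 2 (28.8%). It overlapped the interval of cKO 1, 19.5% to 28.4%. *C1qb* took 52.8% in cKO 3 (interval 47.2% to 58.4%, overlapping the 37.8% to 48.1% of cKO 1) and between 35.4% and 42.9% in the other libraries. *C1qc* took between 31.4% and 33.4% in every library. These intervals cover counting error only, and the difference between the groups, 29.9% ± 1.71 (SD, n = 3) in Ctrl and 23.9% ± 8.14 in cKO for *C1qa*, was within the spread of the cKO libraries (exact permutation test, two-sided, p = 0.4).

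**Figure D2:**
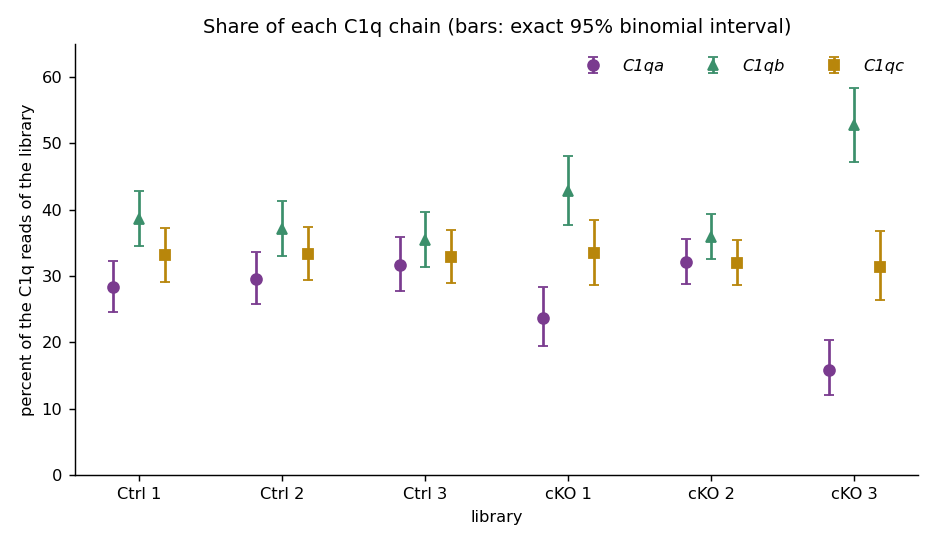
Share of the C1q reads of each library that fell on C1qa (circles), C1qb (triangles) and C1qc (squares), in percent, with exact 95% binomial intervals. C1qa is lowest and C1qb highest in cKO 3, at 15.8% and 52.8%, with intervals that overlap those of cKO 1, while C1qc stays between 31.4% and 33.4%.

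C1q acts through the proteases C1r and C1s and is held in check by the inhibitor encoded by *Serping1*. These partners are made by many cell types. *C1ra* was 7.42 ± 0.682 FPKM (SD, n = 3) in Ctrl and 6.38 ± 2.02 FPKM in cKO, and *C1s1* 5.01 ± 1.10 FPKM and 3.92 ± 1.09 FPKM. *Serping1* was the highest of the list at 31.1 ± 5.46 FPKM in Ctrl and 30.4 ± 4.66 FPKM in cKO. Of the 12 ligands and partners of the members, 9 had enough reads to be tested and 0 passed the unadjusted limit in either direction, with a median log2 fold change of -0.04.

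*Cd68* encodes a lysosomal membrane protein that is abundant in macrophages, and lies on chromosome 11 from 69664213 to 69666153 (minus strand). It stood at 8.49, 7.03 and 6.42 FPKM in Ctrl and at 4.06, 6.83 and 7.40 FPKM in cKO. Only cKO 1 lay below the range of Ctrl. The log2 fold change of -0.25 (95% interval from -0.77 to 0.27) was -0.03 without cKO 1.

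*Cx3cr1* encodes the receptor for fractalkine and spans 119901616 to 120069879 on chromosome 9 (minus strand). Its values were 2.71, 2.34 and 2.54 FPKM in Ctrl and 1.45, 2.57 and 2.20 FPKM in cKO, and again cKO 1 was the lowest. The log2 fold change was -0.22 (95% interval from -0.63 to 0.20) and -0.06 without cKO 1. *Cx3cl1*, which encodes the ligand, was 4.74 ± 0.419 FPKM (SD, n = 3) in Ctrl and 4.53 ± 1.13 FPKM in cKO. The annotated gene of *Cx3cr1* reaches over 9 other genes on chromosome 9, of which 1, *Gm33858* on the other strand, shares exon bases with it (1.73% of them).

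*Mrc1* and *Lyve1* mark macrophages that line vessels and take up glycoproteins and hyaluronan. *Mrc1*, the mannose receptor, lies on chromosome 2 from 14229392 to 14332057 and stood at 3.35, 2.49 and 4.15 FPKM in Ctrl and at 3.24, 2.66 and 2.31 FPKM in cKO. The groups overlapped, with a log2 fold change of -0.20 and a 95% interval from -0.65 to 0.24. *Lyve1*, the hyaluronan receptor, is also made by lymphatic endothelium, and its gene spans 110850607 to 110863239 on chromosome 7 (minus strand). It stood at 0.82, 0.61 and 0.94 FPKM in Ctrl and at 0.66, 0.39 and 0.65 FPKM in cKO, from 19 to 48 reads per library, a log2 fold change of -0.19 (95% interval from -0.59 to 0.20) that was -0.49 under voom on recovered reads. Beside it, the lymphatic gene *Prox1* was 0.405 ± 0.190 FPKM (SD, n = 3) in Ctrl and 0.559 ± 0.0641 FPKM in cKO, and *Flt4* 1.47 ± 0.125 FPKM and 1.43 ± 0.139 FPKM. Of 7 lymphatic genes, 5 were tested and 1 passed as lower in cKO, beside 1.75% of all genes tested. This was *Ccl21a*, a symbol that 2 gene IDs share, and its call was lost without cKO 1 or cKO 2. The summed level of the lymphatic genes was 37.4 to 37.8 FPKM in Ctrl and 32.5 to 42.7 FPKM in cKO. Most of that sum came from 1 gene, *Pdpn*, at 33.9, 32.7 and 25.55 FPKM in Ctrl and 28.5, 39.7 and 36.6 FPKM in cKO. The part of lymphatic cells in the reads on *Lyve1* was not tested.

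*Fcgr1* encodes the high-affinity receptor for IgG, from 96282909 to 96293969 on chromosome 3 (minus strand), and was the lowest member. It stood at 0.75, 0.38 and 0.46 FPKM in Ctrl and at 0.62, 0.64 and 0.54 FPKM in cKO, from 16 to 29 reads per library. At this depth, counting error alone is about 21.3% of the mean in Ctrl and 20.3% in cKO, so a log2 fold change of 0.07 (95% interval from -0.31 to 0.46) could not be told from none. The other Fc gamma receptor genes were tested in 3 of 4 cases and 0 passed, with *Fcgr3* at 3.85 ± 1.27 FPKM (SD, n = 3) in Ctrl and 3.01 ± 0.873 FPKM in cKO. *Fcgrt*, the neonatal Fc receptor, which other cells make too, was at 37.8 ± 3.49 FPKM and 38.8 ± 11.6 FPKM.

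**Figure D3:**
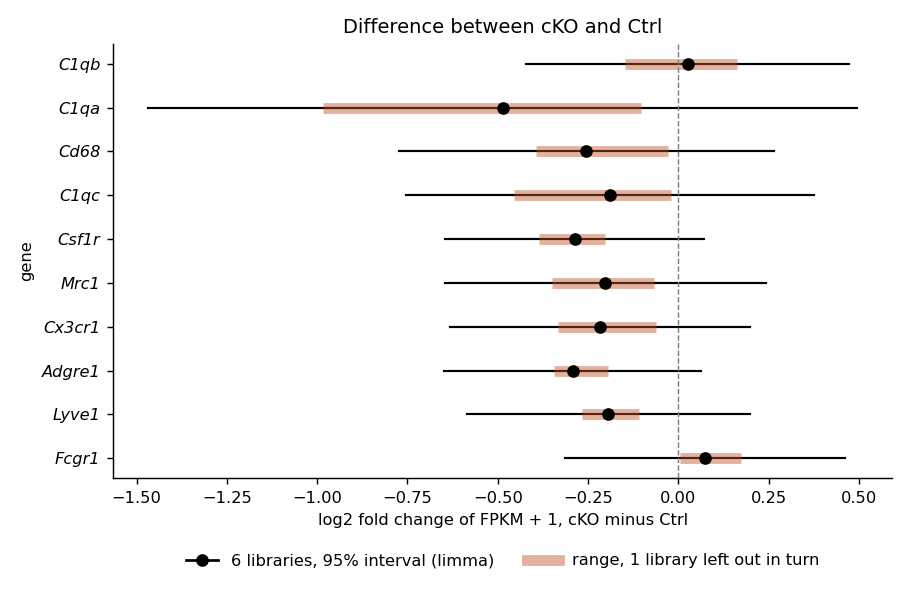
Log2 fold change of FPKM + 1, cKO minus Ctrl, for the 10 genes in order of their level (points), with the 95% interval from limma (thin lines) and the range when each library is left out in turn (wide bars). All 10 intervals include 0, and the range of C1qa is the widest, from -0.98 to -0.10.

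The order of the libraries varied from member to member. Ctrl 1 was the highest library for 4 of the 10 genes, Ctrl 3 for 3 and cKO 2 for 3. The lowest library was cKO 1 for 4 genes, cKO 3 for 4, Ctrl 2 for 1 and cKO 2 for 1. As a description over 6 libraries, the Pearson correlation of each member with the mean of the other 9 was 0.87 for *Csf1r*, 0.85 for *Adgre1*, 0.78 for *Cx3cr1*, 0.71 for *C1qc* and 0.69 for *C1qa*. It was 0.55 for *Cd68*, 0.49 for *C1qb*, 0.27 for *Mrc1*, 0.18 for *Fcgr1* and 0.06 for *Lyve1*. The values of 1 library share its depth and its mix of cells, so these correlations do not separate macrophages from the rest of the library.

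Other cell types moved between the same libraries. Summed FPKM of the 10 macrophage genes was 54.1, 46.6 and 47.2 in Ctrl libraries, against 34.9, 56.9 and 36.8 in cKO libraries. The sum of 8 germ-cell genes ran from 113 to 448 in Ctrl and from 190 to 617 in cKO, with its lowest cKO value in cKO 2, where the macrophage sum was highest. Of the 8, 3 (*Dazl*, *Dppa3* and *Stra8*) passed the unadjusted limit as higher in cKO, beside 2.68% of all genes tested. The others did not pass, with log2 fold changes of -0.01 for *Figla*, 0.27 for *Sycp1*, 0.36 for *Sycp3*, 0.37 for *Mael* and 0.49 for *Ddx4*. *Dazl* and *Dppa3* lost their calls without Ctrl 1, Ctrl 2 or cKO 3, *Dazl* also without cKO 1. Of 10 red blood cell genes, the sum ran from 4901 to 23322 in Ctrl and from 1722 to 10478 in cKO, highest in Ctrl 1 and lowest in cKO 1, as was that of 6 mast cell genes, with 49.9 to 254 and 6.54 to 107. The adult globin genes *Hba-a1* and *Hbb-bs* were the highest of the red blood cell list, while 1 gene, the embryonic globin gene *Hbb-y*, passed the unadjusted limit in the other direction, at 9.59, 6.15 and 10.5 FPKM in Ctrl and 99.6, 23.9 and 26.4 FPKM in cKO. For the 8 pregranulosa and stroma genes it was 329 to 365 in Ctrl and 320 to 435 in cKO. The part of these shifts in the macrophage values was not tested. When every library was scaled to the pregranulosa and stroma genes, a setting chosen after the data had been seen, 0 of the 10 members passed in either direction and 9 of the 10 had a log2 fold change below 0. That scaling turned the balance over all genes from 460 higher and 301 lower to 185 higher and 515 lower.

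**Figure D4:**
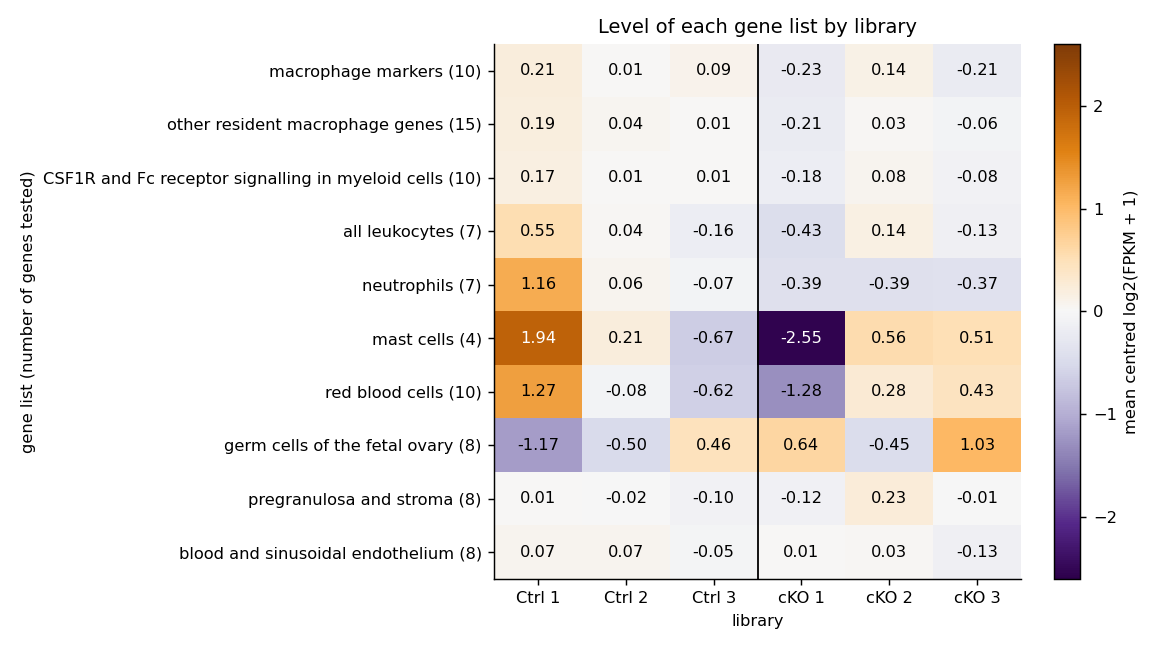
Mean of log2(FPKM + 1) over the tested genes of each list, each gene centred on its own mean over the 6 libraries, so that 0 is the average library (orange above, purple below). The macrophage row runs from -0.23 in cKO 1 to 0.21 in Ctrl 1, a narrower range than the mast cell row, from -2.55 to 1.94.

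Further macrophage genes were read from lists made by function, with earlier results of these data known. Of 20 other genes of resident macrophages, 15 were tested and 0 passed in either direction. Of these, 12 had a log2 fold change below 0, with a median of -0.22. In 5 of the 15 (*Stab1*, *Ms4a7*, *Ms4a6c*, *Ctss* and *Mpeg1*), every cKO library lay below every Ctrl library, beside 4.10% of all genes tested. *Ctss*, a lysosomal protease of antigen-presenting cells, stood at 6.38, 5.50 and 5.40 FPKM in Ctrl and at 4.0, 5.27 and 4.30 FPKM in cKO (limma log2 fold change -0.30, SE 0.14, adjusted p = 0.978). *Mpeg1*, which encodes a pore-forming protein of macrophages, was 2.99 ± 0.428 FPKM (SD, n = 3) in Ctrl and 2.30 ± 0.224 FPKM in cKO. The highest gene of this list, *Gas6*, was at 238 ± 39.1 FPKM in Ctrl and 229 ± 73.6 FPKM in cKO, far above every macrophage marker. It encodes a bridging ligand for the clearance of dying cells and is made by many cell types.

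Among 12 myeloid transcription factors, 1 passed as higher (*Nr1h3*) and 0 as lower, beside 2.68% and 1.75% of all genes tested. *Spi1*, which encodes PU.1, was 1.09 ± 0.327 FPKM (SD, n = 3) in Ctrl and 1.29 ± 0.484 FPKM in cKO. The highest of the list, *Id3*, lay at 101 ± 9.36 FPKM and 101 ± 31.1 FPKM and is not particular to myeloid cells. Among 12 genes that carry signals of CSF1R and of Fc receptors, 10 were tested and 0 passed in either direction, with a median log2 fold change of -0.15. *Tyrobp*, the adaptor of TREM2, was the highest of them at 9.25 ± 2.62 FPKM in Ctrl and 7.01 ± 2.98 FPKM in cKO. Of 8 genes of all leukocytes, 7 were tested and 0 passed, with log2 fold changes below 0 in 7 of 7 and a median of -0.20. Genes typed as microglial were tested in 5 of 6 cases, and 0 passed.

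Of the lists for other white blood cells, neutrophil genes were tested in 7 of 10 cases. Of the 7, 4 (*S100a9*, *Ngp*, *Camp* and *Ltf*) passed as lower in cKO, beside 1.75% of all genes tested. The log2 fold change was below 0 for 6 of the 7, with a median of -1.11. *Mpo* went the other way without passing, at 0.10, 0.05 and 0.13 FPKM in Ctrl and 0.06, 1.32 and 3.11 FPKM in cKO (log2 fold change 0.98). Below the minimum, *Elane* had 0 reads in each Ctrl library and 0, 1 and 29 reads in cKO 1, 2 and 3. *Ly6g* and *Cxcr2*, also below it, had 26 and 40 reads in Ctrl and 7 and 9 in cKO. The summed level of the 10 genes was 283, 88.9 and 73.3 FPKM in Ctrl and 54.8, 51.0 and 49.5 FPKM in cKO. Each of the 4 genes that passed lost its call without cKO 2 and without at least 1 further library. The 4 mast cell genes tested had 0 calls, and so had the 2 lymphocyte genes tested of 8. *Cd3d*, a chain of the T cell receptor complex, had 0 reads in all 6 libraries.

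The 10 genes whose pattern over the 6 libraries was most like the mean of the members included *1700056E22Rik*, *Gm34093*, *Pnlip*, *Gm13829*, *Lst1*, *Bphl*, *Sharpin*, *Chmp2a* and *Mroh2a*, with Pearson correlations between 0.978 and 0.989 over 6 libraries. Correlations this high are found by ranking 17170 genes over 6 points, and none of the 10 passed the unadjusted limit between the groups. By list, the median correlation with the members was 0.76 for all leukocytes and 0.72 for other resident macrophage genes. High values were not particular to these, with 0.66 for neutrophils, 0.65 for mast cells, 0.65 for microglia-type genes and 0.59 for red blood cells. The median was 0.26 for myeloid transcription factors, -0.71 for germ cells and 0.08 for all genes tested outside the members.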

How the data were processed

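RNA of whole ovaries at 16.5 dpc was sequenced as 3 Ctrl and 3 cKO libraries, grouped and numbered from the sample labels and called biological replicates by the study. The authors aligned the reads to GRCm38 with HISAT2 2.0.5, counted them with featureCounts and deposited FPKM per gene. No source states the annotation release or strand setting. FPKM times gene length gave whole reads (within 0.05) for 100% of values, and 14212164 to 16784241 reads on genes per library. The library size by which FPKM was scaled was not exactly these reads. It was 0.965, 1.03 and 1.04 times them in Ctrl 1, 2 and 3 and 0.992, 1.00 and 0.999 times in cKO 1, 2 and 3. P-values measure the spread between these libraries.

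Genes with a mean of at least 0.5 FPKM entered limma 3.58.1 (R 4.3.3) as log2(FPKM + 1), a scale that understates fold changes of low genes. Genotype was the only term, with an intensity trend and two-sided tests, adjusted over all 17180 genes (Benjamini-Hochberg). The call limit was an unadjusted p below 0.05, as in the study. At an adjusted p below 0.05, 0 genes were called (smallest 0.392), beside 460 higher and 301 lower at the unadjusted limit. Exact tests used scipy 1.17.1. On simulated data, limma at an unadjusted p below 0.05 found 85% of genes changed 2-fold and 99.0% of those changed 4-fold in the right direction. Of the unchanged genes, 5.4% passed. Smaller changes, such as those of the members, were not simulated.

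Members and lists were chosen with earlier results of these data known, and the promoter motifs after the sequences had been seen. Named genes are the members, their ligands and partners and, from other lists, genes past the limit, the highest ones and those without overlap, of which examples are given, and 1 gene is not reported here. Alternatives were a pseudocount of 0.1, no minimum or 1 FPKM, median-ratio scaling, voom on recovered reads, no trend, the replicate block, each library left out and, added later, scaling to pregranulosa and stroma genes.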

Additional observations from a re-analysis of the deposited data

How the results depend on the processing

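The count of members past the unadjusted limit was 0 in both directions under all 8 alternatives other than leaving out a library. With each library left out, it was 0 to 3 as lower in cKO, with 3 only without cKO 2, and 0 as higher. *C1qa*, *C1qc* and *Csf1r* (-0.39 on the log2 scale) were these 3, and the cause was not tested. *Adgre1* stayed between -0.41 and -0.19 over all alternatives. Over all genes, 736 were higher and 595 lower with no FPKM minimum, where 33797 genes were tested, and 185 and 515 with scaling to pregranulosa and stroma genes. With a library left out, 201 to 1457 genes were higher and 163 to 1036 lower, and 4 genes passed an adjusted p below 0.05 without Ctrl 1, none of them a member. In cKO the SD between libraries was above counting error for every member but *Fcgr1* (8.79% of the mean against 20.3%). The values were 73.7% against 8.83% for *C1qa*, 41.2% against 7.99% for *C1qc*, 29.2% against 9.19% for *Cd68* and 27.5% against 8.29% for *Cx3cr1*. They were 24.5% against 7.05% for *C1qb*, 17.1% against 6.08% for *Mrc1* and 15.9% against 5.47% for *Csf1r*. The gap was smaller for *Lyve1* (27.5% against 19.9%) and *Adgre1* (11.2% against 10.6%). *Lyve1* and *Fcgr1* rest on under 50 reads per library, and a minimum of 1 FPKM left both out. The replicate numbers did not pair the libraries: deviations of same-numbered libraries correlated at -0.39, -0.03 and 0.12 over genes. The replicate block gave 434 higher and 247 lower genes and 0 members in either direction.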

Other observations

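Outside the marker genes, a gene of antigen presentation and a gene of lipid sensing passed the unadjusted limit as higher in cKO, as did 2.68% of all genes tested. *H2-Ab1*, which encodes the beta chain of an MHC class II molecule, stood at 2.61, 4.07 and 8.71 FPKM in Ctrl and at 15.8, 10.3 and 17.6 FPKM in cKO (limma log2 fold change 1.44, SE 0.38, unadjusted p = 0.0069, adjusted p = 0.978). Other class II genes did not follow it. Its partner *H2-Aa* was 0.343 ± 0.0728 FPKM (SD, n = 3) in Ctrl and 0.296 ± 0.162 FPKM in cKO, and *Cd74*, the invariant chain, 0.769 ± 0.279 FPKM and 0.930 ± 0.331 FPKM. *H2-Eb1*, another class II gene, was lower in cKO, at 2.40 ± 0.919 FPKM in Ctrl and 1.72 ± 0.612 FPKM in cKO (log2 fold change -0.31), and did not pass. *Ciita*, below the minimum, had 56 reads in Ctrl and 38 in cKO. *Nr1h3*, which encodes the oxysterol receptor LXR alpha, stood at 1.25, 1.25 and 1.30 FPKM in Ctrl and at 3.50, 2.30 and 5.21 FPKM in cKO (limma log2 fold change 1.00, SE 0.23, unadjusted p = 0.00408, adjusted p = 0.978). With each of the 6 libraries left out in limma, the unadjusted p ran from 0.00053 to 0.0269 for *H2-Ab1* and from 0.000716 to 0.0146 for *Nr1h3*, which shares 34 exon bases with *Gm13783*.

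Among 16 genes for the uptake of dying cells, 11 were tested. Of these, 1 passed as lower (*Cd36*, a scavenger receptor that endothelium also makes) and 0 as higher, beside 1.75% and 2.68% of all genes tested. *Cd36* stood at 5.80, 3.94 and 4.16 FPKM in Ctrl and at 2.34, 1.88 and 3.92 FPKM in cKO (limma log2 fold change -0.62, SE 0.24, adjusted p = 0.978). Its call was lost when Ctrl 1, Ctrl 3, cKO 1 or cKO 2 was left out, with an unadjusted p of up to 0.108. *Mertk*, a receptor for dying cells, was 7.996 ± 0.396 FPKM (SD, n = 3) in Ctrl and 7.80 ± 1.53 FPKM in cKO.

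*Cd163*, a scavenger receptor used to mark resident macrophages, had 4, 5 and 4 reads in Ctrl 1, 2 and 3 and 0 reads in each cKO library. It was below the minimum for testing and was singled out after its values had been seen. Against a floor of 3 reads over the cKO group, this is 4.2-fold lower. That figure rests on 13 reads and leaves out counting error and the spread between libraries, so it is not a lower bound. The other resident macrophage genes below the minimum did not move in 1 direction. *Siglec1* had 35 reads in Ctrl and 64 in cKO, *Cbr2* 3 and 9, *Timd4* 12 and 7, and *Vsig4* 1 and 0.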
